A study of Mus musculus with 6 samples.

Results

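The interferon response and antigen presentation genes are a list of 35 genes chosen by name, of which 33 had a row on the array, among 19505 gene symbols measured. Rows were matched by the platform's gene symbol, 1 row for each gene, and Ifi44 and Cd74 were not analysed here. The list holds 4 interferon receptor chains, 2 RNA sensors, 4 transcription factors, 14 measured interferon-induced effectors, 8 genes of the MHC class I pathway and 1 class II gene. The tissue was the Müllerian duct of E17.5 mouse embryos, the embryonic tube that forms the oviduct and uterus, with 1 array of total RNA per embryo. The 3 mutant embryos were Lats1f/f, Lats2f/f, Amhr2cre/+, and the 3 control embryos were Lats1f/f, Lats2f/f without Cre. Both groups therefore carried floxed alleles of Lats1 and Lats2, the kinases of the Hippo pathway, and mutants also carried 1 Amhr2 allele with Cre, which acts in cells that express Amhr2, the mesenchyme around the duct. The labels name neither the sex nor the strain of the embryos.

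Interferons are secreted proteins that warn cells of infection. Type I interferons bind the receptor chains IFNAR1 and IFNAR2, and interferon gamma binds IFNGR1 and IFNGR2. The receptors act through JAK kinases and STAT factors, and a complex that holds STAT2 and IRF9 binds the interferon-stimulated response element (ISRE) in front of antiviral genes. Interferon gamma acts mainly through GAS elements and raises the proteasome subunits, peptide transporters and MHC molecules that show peptides to T cells. At low levels many of these genes are also active without infection, and macrophages express much of the class II pathway.

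The ISRE core is printed here because it is the sequence the induced genes are known for. It was searched on both strands, as GAAA, any 2 bases and GAAA again, in RefSeq promoter windows of GRCm38.p6 that run from 250 bases before to 50 bases after each start site. Windows were found for 31 of the 35 genes, and 12 of these, or 38.7%, held the core, against 3.99% of all 27025 genes in the table. The matches of Ifih1, Ddx58 and Ifitm3 began after the start site and are not printed. The other 9 are shown 5′ to 3′ on the gene's strand, with the core in capitals and up to 15 bases on each side.
Isg15, chr4:156200860-156200911, minus strand: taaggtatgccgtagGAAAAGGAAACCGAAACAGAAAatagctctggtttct
Ifit1, chr19:34640770-34640828, plus strand: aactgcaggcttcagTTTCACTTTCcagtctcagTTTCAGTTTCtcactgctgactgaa
Ifit3, chr19:34583358-34583431, plus strand: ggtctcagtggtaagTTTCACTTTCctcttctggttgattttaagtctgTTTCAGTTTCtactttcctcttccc
Oas1a, chr5:120907526-120907560, minus strand: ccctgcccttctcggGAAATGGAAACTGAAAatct
Stat2, chr10:128270261-128270300, plus strand: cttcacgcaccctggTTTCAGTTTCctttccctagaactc
Rsad2, chr12:26456548-26456587, minus strand: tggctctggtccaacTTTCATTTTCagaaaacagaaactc
Bst2, chr8:71537572-71537617, minus strand: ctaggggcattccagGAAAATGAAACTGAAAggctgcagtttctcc
Ifitm2, chr7:140955983-140956022, minus strand: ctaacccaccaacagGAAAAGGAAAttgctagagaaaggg
B2m, chr2:122147533-122147572, plus strand: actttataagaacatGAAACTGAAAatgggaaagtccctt
The cores of Ifit1 and Ifit3 began 104 and 156 bases before the start site, and that of Isg15, which held 3 overlapping matches, 78 bases before it. The GAS letters TTCNNNGAA, which read the same on both strands, were found in windows of 9 of the 31 genes, or 29.0%, against 9.55% of all genes. The GAS match of Bst2 overlapped its ISRE core and that of Ifitm3 likewise. Irf1, a transcription factor induced by interferon gamma, has the following GAS match in capitals.
Irf1, chr11:53769909-53769947, plus strand: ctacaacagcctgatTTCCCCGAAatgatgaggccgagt

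Signals are log2 values as the authors deposited them, and each array was read against the median of its 23 antigenomic background rows, probes that match no mouse sequence. That median was 5.67, 5.81 and 5.88 on mutant 1 to 3 and 5.46, 5.35 and 5.86 on control 1 to 3. The background rows themselves ran from 2.36 to 8.95, so a gene near the median is only loosely separated from background. Of the 33 genes, 20 were above the median on all 6 arrays, or 60.6%, beside 56% of all 22206 tested rows. A further 7 were below it on every array, and 6 were above it on some arrays.

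No gene of the 33 passed an adjusted p of 0.05 between mutant and control ducts in limma's test, in which p-values were adjusted over all 22206 rows. Over all rows 2.59% rose and 0.666% fell, 575 and 148 rows, or 3.26% in all. At an unadjusted p under 0.05, 8 of the 33 genes were higher in mutant ducts and none was lower, or 24.2% and 0%, beside 8.49% and 6.81% of all rows. The 8 were Irf9, H2-Aa, Ifngr2, Oasl2, Ifit3, H2-K1, Ifit1 and Ifngr1, and the smallest adjusted p was that of Irf9, 0.104. The median log2 fold change of the 33 genes, mutant minus control, was 0.18, against -0.01 over all rows, and 23 were above 0 and 10 below, so that 69.7% were above 0, against 48.5% of all rows. Differences ran from -0.37 for Ifitm1 to 0.89 for Oasl2.

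**Figure D1:**
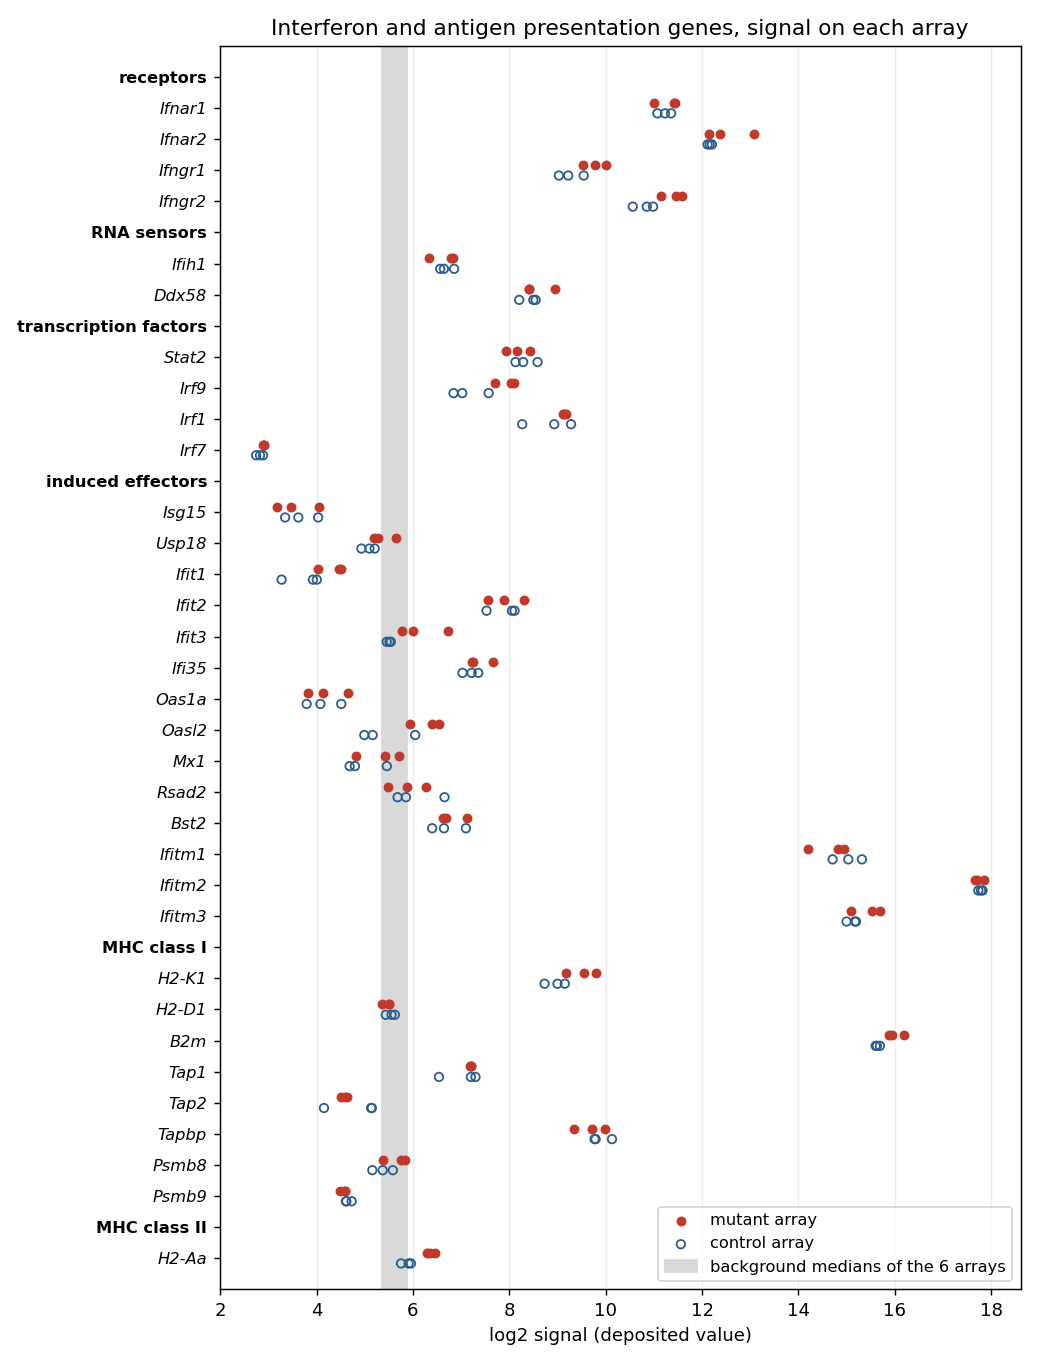
Log2 signal of each of the 33 genes on each array, grouped by role, with mutant arrays as filled and control arrays as open points. The grey band spans the background medians of the 6 arrays, from 5.35 to 5.88. Irf7, Isg15, Ifit1, Oas1a, Tap2 and Psmb9 lie below it on all arrays, and signals of different genes are not comparable with each other.

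For 27 of the 33 genes the 95% interval of the log2 fold change lay between -1 and 1, so that a 2-fold difference in signal was outside it. The same held for 18839 of all 22206 rows. Of the 27 genes, 17 were above background on all 6 arrays. Another 6 of them were below it on every array, where a narrow interval says little about the RNA. The intervals of Ifit1, Ifit3, Irf9, Oasl2, Ifngr2 and H2-K1 reached above 1. These intervals are not adjusted for the number of genes. The smallest difference that passed the test over all rows was 0.69, and the standard errors of the 33 genes had a median of 0.21. On 8 genes all mutant arrays lay above all control arrays and on 1, Psmb9, all lay below, or 24.2% and 3.03%, against 10.9% and 10.2% of all rows. The 8 were Ifngr2, Irf9, Irf7, Ifit1, Ifit3, H2-K1, B2m and H2-Aa. Irf7 and Ifit1, and also Psmb9, were below background on every array.

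**Figure D2:**
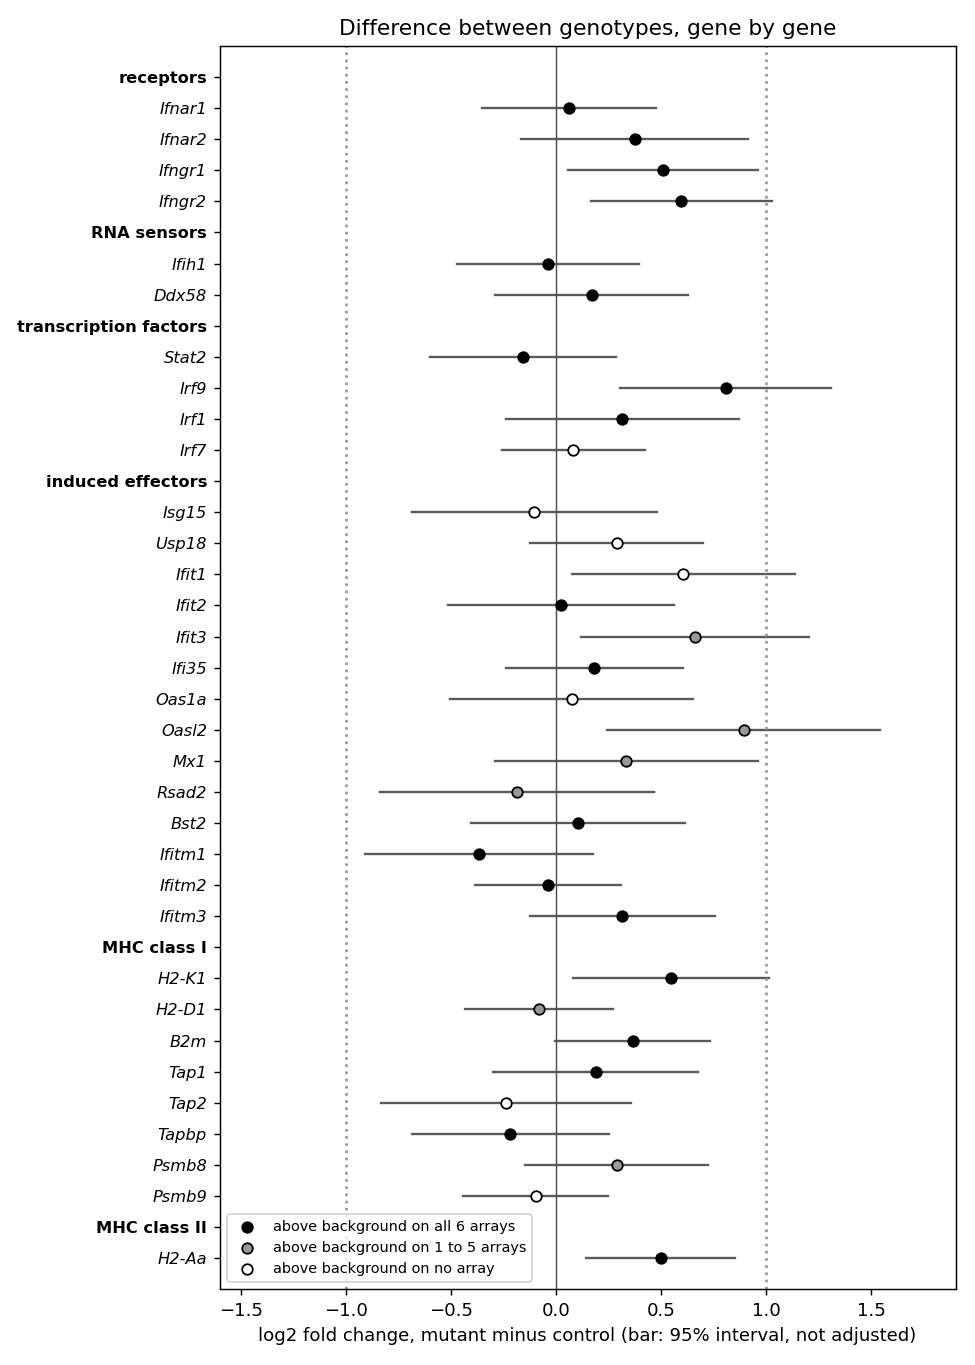
Log2 fold change of each gene, mutant minus control, with its unadjusted 95% interval as a bar and dotted lines at -1 and 1. Filled points mark the 20 genes above background on all 6 arrays, grey and open points the others; no gene passed the threshold and the highest points are Oasl2 (0.89) and Irf9 (0.81).

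The receptor chains were measured well above background on every array. Ifngr2, the signalling chain of the interferon gamma receptor, had 11.47, 11.14 and 11.58 in mutant ducts, against 10.85, 10.98 and 10.56 in control ducts. In deposited signal the lowest mutant array was above the highest control array by a small margin. Its log2 fold change was 0.60 ± 0.19 (SE), 1.51-fold, with a limma adjusted p of 0.164. Ifngr1, the ligand-binding chain, had 9.53, 9.78 and 10.02 in mutant ducts, against 9.03, 9.54 and 9.22 in control ducts. Control 2 was level with the lowest mutant array, and the difference was 0.51 ± 0.20 with an adjusted p of 0.264. Ifnar1 averaged 11.28 ± 0.25 in mutant and 11.22 ± 0.14 in control ducts (SD, n = 3 each), with an interval of the difference from -0.35 to 0.47. Ifnar2 had 12.38, 12.14 and 13.09 in mutant ducts, against 12.16, 12.21 and 12.12 in control ducts. Mutant 3 was highest and mutant 2 lay within the control range, and the difference of 0.37 ± 0.24 did not pass.

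None of the 4 transcription factors passed, and 3 of the 4 differences were above 0. Irf9, the DNA-binding partner of STAT2, had 8.11, 7.71 and 8.04 in mutant ducts, against 7.02, 7.57 and 6.84 in control ducts. In deposited signal the groups did not overlap, with control 2 closest to the mutants. The difference was 0.81 ± 0.22 (SE), 1.75-fold, with an interval from 0.31 to 1.31 and a limma adjusted p of 0.104. It passed when control 2 was left out, with a difference of 1.02 and an adjusted p of 0.0499, and its adjusted p lay between 0.0499 and 0.330 over all 15 alternatives. Stat2, its partner, had 7.94, 8.16 and 8.43 in mutant ducts, against 8.13, 8.29 and 8.59 in control ducts, a difference of -0.16 ± 0.20. Irf1 had 9.11, 9.18 and 9.13 in mutant ducts and 8.27, 9.28 and 8.93 in control ducts. The mutant values lay inside the control range, and the interval of the difference ran from -0.24 to 0.87. Irf7, which amplifies the production of type I interferon, stayed between 2.74 and 2.91 on all 6 arrays, below the background median of each.

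The cytosolic sensors of viral RNA were above background on all arrays and did not separate the groups. Ddx58, which encodes RIG-I, averaged 8.59 ± 0.31 in mutant and 8.42 ± 0.18 in control ducts (SD, n = 3 each). Ifih1, which encodes MDA5, averaged 6.65 ± 0.28 in mutant and 6.69 ± 0.15 in control ducts. Their intervals ran from -0.29 to 0.63 and from -0.47 to 0.40.

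Many of the classical induced effectors were at background. Isg15, the ubiquitin-like modifier, had 4.05, 3.18 and 3.46 in mutant ducts, against 3.62, 4.03 and 3.35 in control ducts. Every value was below the array's background median, as were those of Usp18, the protease that removes ISG15, and of Oas1a, an oligoadenylate synthetase. Ifit1, which binds foreign RNA, had higher deposited signal on all mutant arrays, with 4.04, 4.51 and 4.47, against 3.27, 4.004 and 3.92 in control ducts. All 6 of these values were below background, so no fold is given for its difference. Mx1, a dynamin-like antiviral GTPase, was above background in mutant 1 alone, with 5.70 there, and its group means were 5.31 in mutant and 4.98 in control ducts. Rsad2, which encodes viperin, had 5.88, 5.48 and 6.27 in mutant ducts, against 5.85, 5.68 and 6.65 in control ducts, and its groups overlapped.

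Ifit3 and Oasl2 were above the background median on all mutant arrays and on 1 control array each, with overlapping margins. Ifit3 lay 0.16 above it in control 2, beside 0.09, 0.91 and 0.13 in mutant 1 to 3. Oasl2 lay 0.59 above it in control 1, beside 0.87, 0.13 and 0.52 in mutant 1 to 3. Ifit3 had 5.76, 6.72 and 6.01 in mutant ducts, against 5.46, 5.51 and 5.54 in control ducts. All mutant values were above the array's background median, but only in control 2 was a control value above it, and the log2 difference was 0.66 ± 0.24 (limma adjusted p = 0.222). Oasl2, a member of the oligoadenylate synthetase-like family, had 6.54, 5.94 and 6.40 in mutant ducts, against 6.05, 5.16 and 4.99 in control ducts. Control 1 was above the lowest mutant array. The difference was 0.89 ± 0.29 with an adjusted p of 0.167, and it passed without control 1, with 1.22 and an adjusted p of 0.0458. Over all 15 alternatives the adjusted p of Oasl2 lay between 0.0458 and 0.385. Because controls were mostly at background, the size of both differences is of little precision. Genes of the Ifit, Oas and Ifitm families and the MHC class I genes have close relatives, and the probe sequences were not used here, so shared signal within a family cannot be told apart.

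The remaining effectors were above background and their groups overlapped. The 3 membrane proteins that block virus entry had high signals. Ifitm2 stayed between 17.67 and 17.86 on all 6 arrays, with an interval of the difference from -0.39 to 0.31. Ifitm3 had 15.70, 15.53 and 15.09 in mutant ducts, against 15.20, 15.18 and 15.001 in control ducts, and its difference of 0.32 ± 0.19 did not pass. Ifitm1 had a difference of the other sign, with 14.94, 14.82 and 14.20 in mutant ducts, against 15.04, 15.32 and 14.71 in control ducts. Its difference of -0.37 ± 0.24 did not pass either. Bst2, which encodes tetherin, Ifit2 and Ifi35 had differences of 0.11, 0.02 and 0.18, each smaller than its standard error.

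Among MHC class I genes, the heavy chain H2-K1 and the light chain B2m had higher deposited signal on all mutant arrays, but neither passed. H2-K1 had 9.80, 9.18 and 9.55 in mutant ducts, against 9.15, 8.73 and 8.9996 in control ducts, a difference of 0.55 ± 0.21 with a limma adjusted p of 0.242. The gap between mutant 2 and control 1 was small. B2m had 15.94, 15.88 and 16.20 in mutant ducts, against 15.63, 15.61 and 15.69 in control ducts. Its difference was 0.36 ± 0.16, 1.29-fold, with an adjusted p of 0.332. H2-D1, the other classical heavy chain on the array, was between 5.36 and 5.62 on all arrays, and above background in control 2 alone.

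None of the peptide supply genes passed, and Tap2 and Psmb9 were below background on every array. Tap1, a subunit of the peptide transporter, had 7.19, 7.21 and 7.21 in mutant ducts, against 7.20, 6.54 and 7.30 in control ducts. Tap2 encodes the other subunit. Tapbp, which encodes tapasin, had a difference of -0.22 ± 0.21. The immunoproteasome subunit Psmb9 had means of 4.55 ± 0.06 in mutant and 4.65 ± 0.07 in control ducts (SD, n = 3 each). Psmb8, another immunoproteasome subunit, was above background in mutant 1 and control 2 alone. By comparison, all 13 measured core proteasome subunits were above background on every array, and none passed the test (median log2 fold change 0.09). Tap1 and Psmb9 lie head to head, and the 225 bases between their RefSeq start sites in GRCm38.p6 are printed because both genes share them. They hold no capitals, since neither motif was found.
Tap1 to Psmb9, chr17:34187331-34187555, plus strand: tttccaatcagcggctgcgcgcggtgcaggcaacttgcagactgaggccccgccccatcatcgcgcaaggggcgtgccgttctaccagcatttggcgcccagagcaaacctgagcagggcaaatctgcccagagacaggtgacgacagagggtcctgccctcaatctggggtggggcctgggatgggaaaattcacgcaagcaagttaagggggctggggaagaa

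H2-Aa, the alpha chain of the class II molecule I-A, was the only class II gene of the list with a row. It had 6.29, 6.46 and 6.36 in mutant ducts, against 5.75, 5.91 and 5.96 in control ducts. In deposited signal the groups did not overlap. All values were above the background median, by 0.48 to 0.65 in mutant and by 0.10 to 0.56 in control ducts. By that measure the groups overlapped. The difference was 0.50 ± 0.16 (SE), with an interval from 0.14 to 0.85 and a limma adjusted p of 0.159.

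Over the whole array, genes with an ISRE core in the window were called at about the share of those without one. Of 619 tested rows with a core, 17 rose and 2 fell, or 2.75% and 0.323%, beside 2.63% and 0.688% of 15126 rows with a window and no core. Their median log2 fold changes were -0.0054 and -0.0076. Among the listed genes the 12 with a core had a median of 0.09 and the 18 measured genes with a window and no core 0.24. These are descriptions and were not tested.

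Other genes of the pathway, given from lists of the known components, were read in the same fit. None of 19 interferon genes passed, with a median of 0.03, and 14 of them were below background on every array. At an unadjusted p under 0.05 Ifnz was the only one, and it too was below background on every array. The type I gene Ifnb1 was above background in mutant 1 alone, with 5.89 there and between 4.51 and 4.69 on the other 5 arrays. Ifng was between 4.34 and 5.26 and Ifne, the type I interferon known from the female tract, between 3.14 and 3.47, both below background on every array. In the list of 58 measured interferon-induced genes beyond the 33, 1 rose and none fell, 5 were higher and 3 lower at an unadjusted p under 0.05, and the median was -0.01. The gene that rose was Cxcl10, a chemokine for T cells, with 6.48, 6.95 and 6.78 in mutant ducts, against 5.81, 5.22 and 5.95 in control ducts. Its difference was 1.08 ± 0.23 (limma adjusted p = 0.0358). It did not pass without any 1 of the mutants, nor without control 1 or control 2, with adjusted p up to 0.120. It was kept without control 3 (0.0312). Irgm1, an immunity-related GTPase, came next with 0.73 ± 0.18 (adjusted p = 0.0668).

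Among 17 sensors and adaptors 2 rose and none fell. Myd88, the adaptor of Toll-like receptors, had 9.84, 9.70 and 10.09 in mutant ducts, against 8.82, 8.52 and 8.94 in control ducts. It rose 2.17-fold, by 1.12 ± 0.19 (limma adjusted p = 0.0116), and was lost without mutant 1 (0.0504). Sting1, the adaptor of cytosolic DNA sensing, had 10.37, 10.20 and 9.93 in mutant ducts, against 9.15, 9.37 and 9.44 in control ducts. Its rise of 0.85 ± 0.18 (adjusted p = 0.0373) was lost without mutant 1, mutant 2 or any 1 of the controls, with adjusted p up to 0.153, and was kept without mutant 3 (0.0431). Mavs, Tbk1 and Irf3, which carry the RNA-sensing signal, had differences of -0.09, -0.22 and -0.0017.

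Of 14 further genes of receptors, JAK kinases, STAT factors and their inhibitors, 2 passed the test, both higher in mutant ducts, but only Stat3 did so above background. Stat3, which serves the interleukin-6 family of cytokines more than interferons, had 11.91, 11.31 and 11.57 in mutant ducts, against 9.13, 9.27 and 9.81 in control ducts. It rose 4.58-fold, by 2.19 ± 0.23 (limma adjusted p = 0.00111), and passed in all 6 fits that left out 1 array. Ptpn6, a phosphatase of blood cells that damps JAK signalling, passed (adjusted p = 0.0253) with signals below background on all 6 arrays, so no size is given for its difference. It did not pass without any 1 of the 6 arrays (adjusted p from 0.0516 to 0.0901). Jak1 and Tyk2, the kinases of the type I receptor, had differences of 0.02 ± 0.20 and -0.11 ± 0.20.

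**Figure D3:**
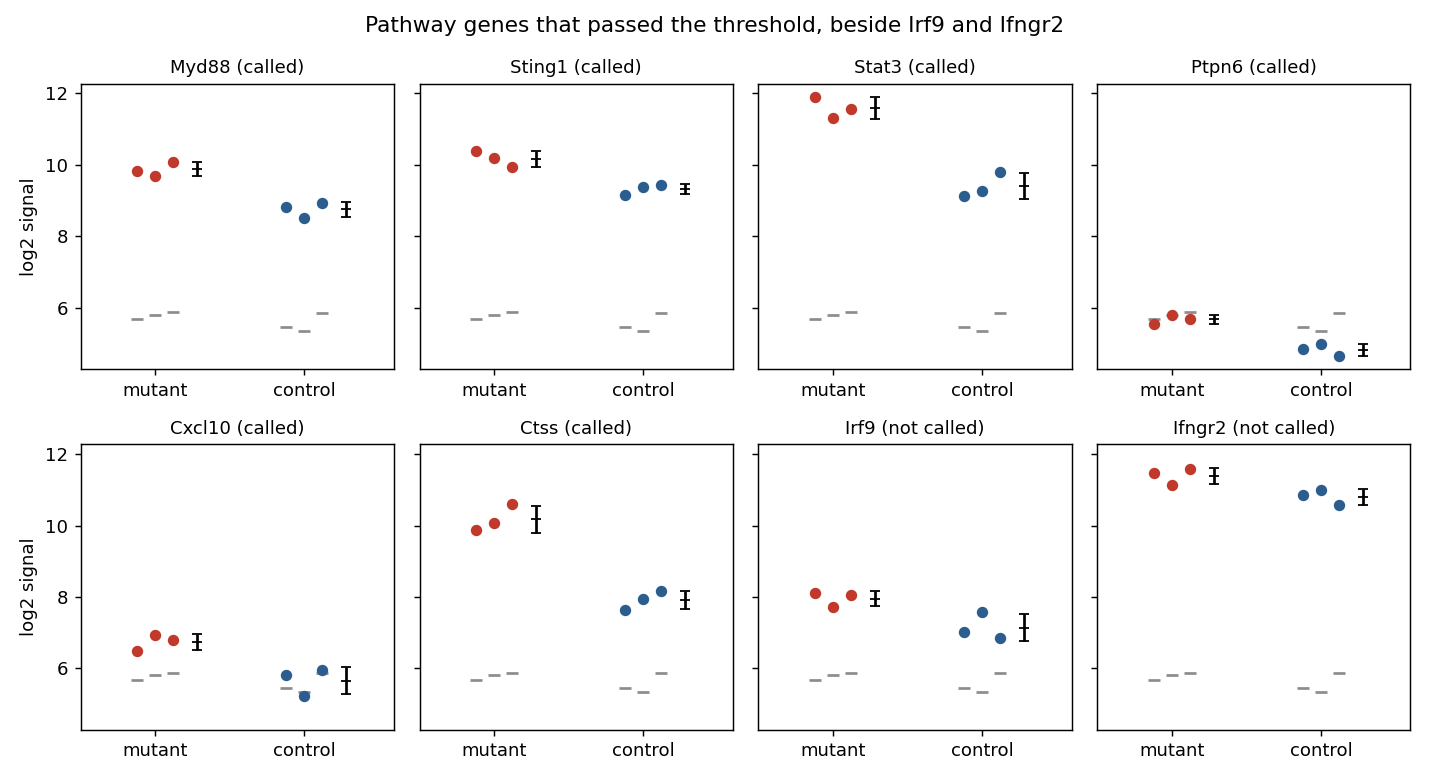
Log2 signal on each array for the 6 pathway genes outside the list that passed the threshold and for Irf9 and Ifngr2, which did not; coloured points are arrays, black marks the mean and SD of 3 arrays, and grey dashes the array's background median. Stat3 and Ctss are separated by over 1 log2 unit between every mutant and control array, while Ptpn6 lies below background throughout.

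None of 23 further class I pathway genes passed (median 0.14, lowest adjusted p 0.288). Of 15 further class II genes, 1 rose and none fell, with a median of 0.30. This was Ctss, the lysosomal protease that trims the invariant chain and is abundant in macrophages, with 9.88, 10.06 and 10.61 in mutant ducts, against 7.65, 7.95 and 8.16 in control ducts. It rose 4.82-fold, by 2.27 ± 0.23 (limma adjusted p = 0.00087), and in every fit that left out 1 array. The beta chain H2-Ab1, partner of H2-Aa, averaged 6.68 ± 0.28 in mutant and 6.39 ± 0.12 in control ducts (SD, n = 3 each) and did not pass. H2-DMb1, which helps load class II peptides, had a difference of 0.51 ± 0.22 (adjusted p = 0.302), and Ciita, the class II master regulator, of 0.05 ± 0.26.

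Markers of macrophages were higher on the same arrays. Of 17 measured, 10 rose and none fell, with a median of 1.21, and Cd163, with a difference of -0.82 that did not pass, was the only one below 0. Their summed linear signal was 25338 to 33644 in mutant and 13748 to 15174 in control ducts. No marker was at background on every array. The list of 33 had mean deviations from each gene's mean of 0.17, 0.02 and 0.12 on mutant 1 to 3 and -0.13, -0.06 and -0.12 on control 1 to 3, beside 0.37 to 0.71 and -0.56 to -0.47 for the macrophage markers. The part of macrophages in the differences of H2-Aa, Ctss, Ifngr1, Ifngr2, B2m and H2-K1 was not tested, and in whole ducts more cells of a type and more RNA per cell cannot be told apart. Dendritic cell and lymphocyte markers had no rise or fall among 10 measured each, and 7 and 9 of these were below background on every array. A list of 14 immediate early and stress genes, with 5 rises and no fall, also separated the groups, with mean deviations of 0.53 to 0.60 in mutant and -0.72 to -0.23 in control ducts, and its part was not tested.

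**Figure D4:**
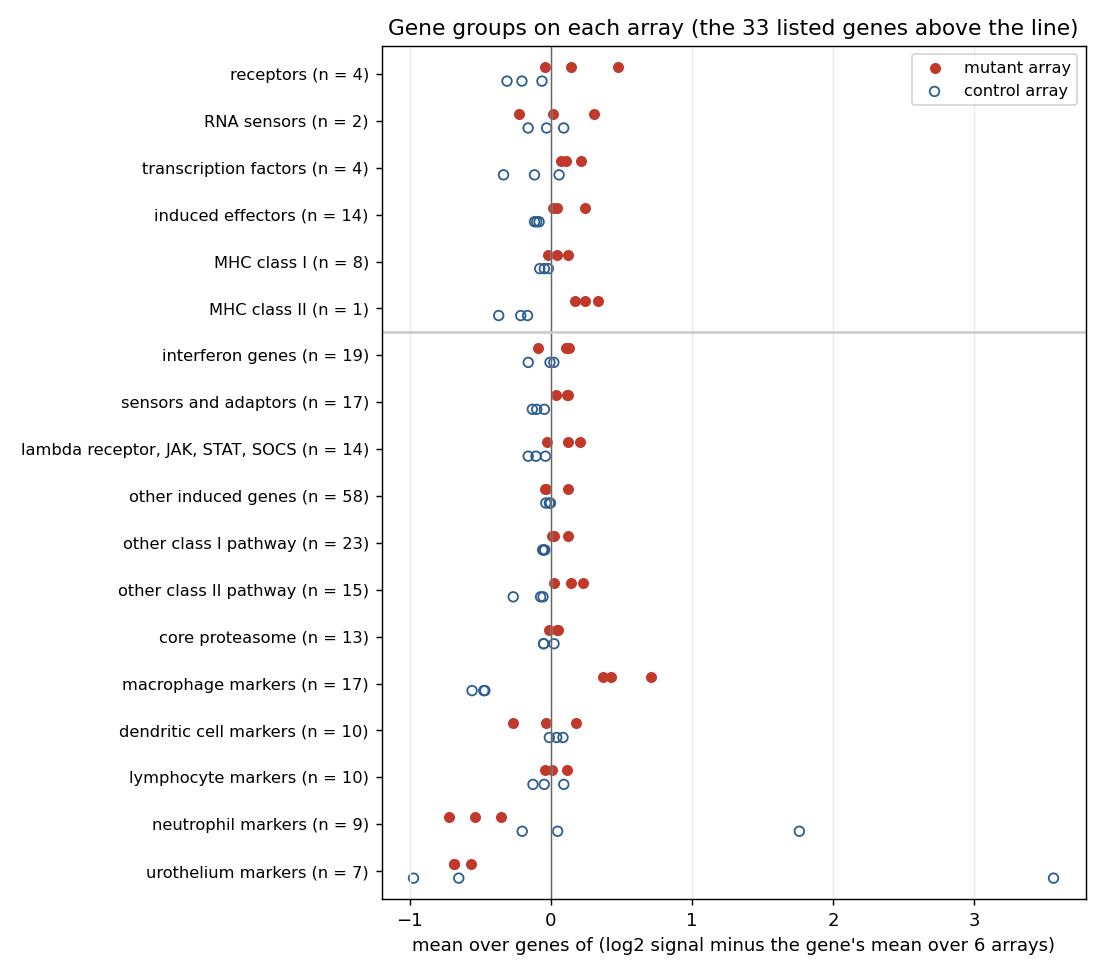
Mean deviation of each gene group on each array, as log2 signal minus the gene's mean over 6 arrays, with mutant arrays as filled and control arrays as open points. Macrophage markers lie at 0.37 to 0.71 in mutant and -0.56 to -0.47 in control ducts, and 1 control array stands far right for neutrophil and 1 for urothelium markers.

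Some arrays stood apart. Control 2 had a mean deviation of 1.76 for 9 neutrophil markers, against at most 0.05 on the other arrays, and control 3 of 3.56 for 7 urothelium markers, against at most -0.57. For the neutrophil markers mutant 1 to 3 had -0.35, -0.72 and -0.54, below the 0.05 and -0.20 of control 1 and control 3. Of these 9 markers 1 fell, Retnlg (-2.92 ± 0.22, limma adjusted p = 0.000205), none rose, and 8 differences were below 0. The part of neutrophils in the differences of the 33 genes was not tested. Without control 2, 1 of the 33 genes rose (Irf9), and without control 3 none did, with medians of 0.21 and 0.24. Of 9 markers of Müllerian mesenchyme and 10 of its epithelium, 8 and 9 were above background on every array. The mesenchyme markers had mean deviations of -0.40, 0.0045 and -0.49 on mutant 1 to 3, against 0.40, 0.24 and 0.24 on control 1 to 3. These means include Amhr2, of which mutants carried 1 allele with Cre and whose log2 fold change of -3.73 was the lowest of the 9. The median log2 fold change of the 9 markers was -0.31, with 1 fall, that of Amhr2. At an unadjusted p under 0.05, 4 of the 9 were lower and 1, Wnt4, was higher. Wnt4 had a difference of 1.00 ± 0.23 (limma adjusted p = 0.0530), and 3 of the 9 differences were above 0. The part of the mesenchyme in the differences of the 33 genes was not tested. Amhr2 had 6.92, 7.52 and 6.54 in mutant ducts, against 10.88, 10.51 and 10.80 in control ducts. Lats1 had a log2 fold change of -0.78 ± 0.21 (limma adjusted p = 0.0958) and Lats2 of 0.22 ± 0.21, and the labels do not say whether their probes lie in the deleted exons.

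The scale of the arrays bears on small differences of this kind. When arrays were set to a common median of background rows instead, the median of all rows was -0.24 in place of -0.01, and the split of calls turned from 575 rises and 148 falls to 384 and 464. No gene of the 33 passed on that scale either, and their median was -0.05. At an unadjusted p under 0.05, only 1 of the 33 was higher on that scale and none was lower, in place of 8 and none. This scaling moves every log2 fold change by the same amount, so by construction the median of the 33 genes exceeds that of all rows by 0.19 on both scales, and the 8 genes that changed sign were those with the smallest positive differences, up to 0.19.

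**Figure D5:**
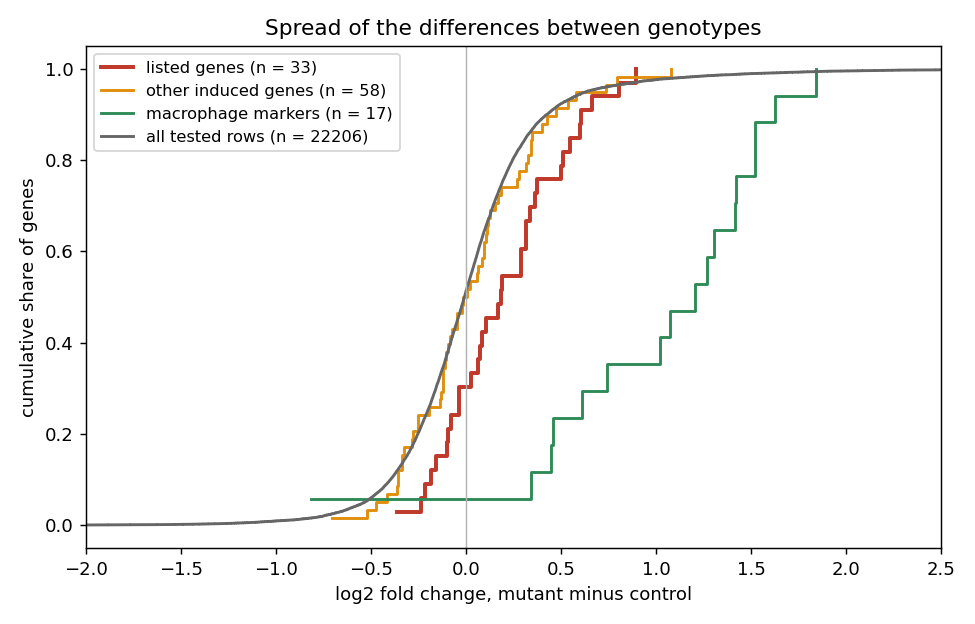
Cumulative share of genes by log2 fold change for the 33 listed genes, the 58 other interferon-induced genes, the 17 macrophage markers and all 22206 tested rows. The curve of the listed genes (median 0.18) lies right of that of all rows (median -0.01), that of the other induced genes (median -0.01) follows it, and that of the macrophage markers (median 1.21) lies far right.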

How the data were processed

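Total RNA of 6 Müllerian ducts, 3 per genotype, was hybridised to Affymetrix arrays. The labels call the samples biological replicates. Precision is limited by there being 3 arrays per group. The authors deposited 1 table of log2 signals per transcript cluster. Per the submitters' processing notes, the software was Transcriptome Analysis Console 4.0. How signals were summarised and normalized, and on which build, was not given in the sources used here. Array medians lay between 6.87 and 6.95, and values were used as deposited.

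The 22206 transcript clusters were tested, and control and spike rows were left out. The platform annotation gave a symbol to 19572 of them. Genotype was the only term in lmFit and eBayes of limma 3.58.1 (R 4.3.3), two-sided, with Benjamini-Hochberg adjustment over all tested rows and a threshold of 0.05. Standard errors and 95% intervals are limma's. The fit was tested on simulated data. Where a gene had several rows the brightest was used, which arose for none of the 33 genes. Promoter sequences are from RefSeq (GRCm38.p6). Figures were drawn with matplotlib 3.10.9.

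All listed genes are named. Of the other interferon and antigen presentation lists, all genes past the threshold are named, and some others were picked with their values in view. Most of the cell type markers and immediate early and stress genes past the threshold are not named. The genes and lists were chosen with earlier results of these data known. Alternatives were other scalings, filters on dim rows, a trended and robust prior, array weights, a replicate block, thresholds of 0.01 and 0.1, averaging the rows of a gene, and each array left out. The counts for other lists without 1 array were an alternative chosen after seeing the data.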

Additional observations from a re-analysis of the deposited data

How the results depend on the processing

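None of the 33 genes fell under any alternative, and none rose under any except that 1 rose without control 1 (Oasl2) and 1 without control 2 (Irf9), so that fits without 1 array gave 0 to 1. The median log2 fold change of the 33 genes was -0.0485 with arrays set to a common median of background rows and 0.13 to 0.24 with 1 array left out. At an unadjusted p under 0.05, 5 to 8 of the 33 were higher with 1 array left out. In these fits 1 was lower without control 3 and none otherwise. Over all rows 299 passed at a threshold of 0.01 and 1096 at 0.1, without any of the 33 genes, and 360 to 697 passed with 1 array left out. With 1 array left out, rises numbered 0 to 2 among sensors and adaptors, 0 to 1 among other induced genes, 1 in each fit around the receptors and JAK kinases and among other class II genes, and 0 in each among interferon and other class I genes. On the scale of background rows Myd88 (limma adjusted p = 0.0592), Sting1 (0.258), Ptpn6 (0.254) and Cxcl10 (0.0773) did not pass, the cause was not tested, and Stat3 and Ctss passed under every alternative. Deviations of same-numbered arrays had correlations across rows from -0.0030 to 0.0419, and those of differently numbered arrays from -0.0435 to 0.0318. The numbers were therefore not used as pairs in the main fit, though 3 arrays per group cannot exclude a pairing. With the replicate block 633 rows and 0 of the 33 genes passed, and Sting1 (0.0848), Ptpn6 (0.0517) and Cxcl10 (0.0656) did not. Filters on dim rows kept 28 or 23 of the 33 genes. Signals near background limit what could be seen for 13 genes that were below the background median on at least 1 array.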
